A study of Mus musculus with 4 samples.

Results

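The transcripts described here are those of 9 cytoplasmic tyrosine kinases: Src, Fyn, Lyn, Fgr, Lck and Yes1 of the Src family, Csk, which holds that family in check, and Syk and Btk, which act just after it at immune receptors. They were taken by gene symbol from tables of 56004 gene rows, and each of the 9 symbols had 1 row. Their levels were measured in 4 RNA-seq libraries of cells that the labels name as mouse Kupffer cells, the macrophages resident in the liver. In 2 libraries, the PRL-3 libraries, the cells had been exposed for 48 h to exosomes (small secreted vesicles) of the MC38 mouse colon carcinoma line called MC38-PRL-3. In the other 2, the VT libraries, the cells had been exposed for the same time to exosomes of the line called MC38-VT, so that cells of both groups had received tumour exosomes. The protocol gives 10 ug of exosomes beside the MC38-VT name only, and it does not expand VT. The titles call the libraries of each group biological replicates. The labels give no strain, age or genotype of the source animals, and they say neither how the cultures of a group were separate nor whether the lines were single clones. The p-values below therefore measure the spread between these libraries, and how much of it is technical is not known. No library of cells without exosomes was analysed here.

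Src family kinases sit on the inner face of the plasma membrane. Csk phosphorylates a tyrosine near their carboxyl end, and the tail then folds back and keeps the kinase closed. When an Fc receptor, a lectin or an integrin is engaged, the open kinases phosphorylate the tyrosine motifs of the receptor or its adaptor (the ITAM), Syk docks there, and Btk and the phospholipase PLCγ2 are activated downstream. Lyn and Fgr are well known from macrophages and granulocytes, Lck is best known from T cells, Fyn is found in many tissues, and Src and Yes1 are expressed broadly.

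The stretch of the coding sequence on which Csk acts splits these genes into sets by the length of the tail, so it is printed here. Each line gives the last 45 coding bases before the stop codon, read from GENCODE release M21 transcripts on GRCm38, with the last tyrosine codon in capitals. All lie within the last coding exon, and every complete coding transcript of a gene had the same end.
Src (chr2:157469914-157469958, plus strand): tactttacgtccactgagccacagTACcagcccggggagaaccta
Yes1 (chr5:32684712-32684756, plus strand): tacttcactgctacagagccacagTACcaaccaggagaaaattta
Fyn (chr10:39563925-39563969, plus strand): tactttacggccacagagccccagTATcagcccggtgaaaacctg
Fgr (chr4:133000296-133000340, plus strand): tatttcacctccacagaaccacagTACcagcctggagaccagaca
Lyn (chr4:3789897-3789941, plus strand): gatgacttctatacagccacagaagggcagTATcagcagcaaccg
Lck (chr4:129548801-129548845, minus strand): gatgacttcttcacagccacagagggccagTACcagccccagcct

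In Src, Yes1, Fyn and Fgr 6 codons followed the tyrosine codon, and in Lyn and Lck 4 followed it. Over the 24 bases that end with the tyrosine codon, the 6 pairs within the first set shared 18 to 20 bases, the pair of the second shared 19, and the 8 pairs between the sets 15 to 19. The sets thus overlapped in this measure and were told apart by the length of the tail.

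Levels are given as FPKM, the fragments of a gene scaled to transcript length in kilobases and to 1e6 sequenced fragments, which is per length and so allows genes to be set against each other. The depth recovered from the low values was about 17.3 to 18.2 in units of 1e6 fragments per library. A gene was tested where its FPKM was 1 or more in at least 2 libraries, which held for 8 of the 9 kinases and for 12193 genes in all. PRL-3 replicate 1 was the most distant library, with an SD of the log2 ratio over tested genes of 0.402 to 0.412 in each pair that included it and 0.313 to 0.366 in the others. All 10 macrophage markers were expressed (summed level 8782 and 8887 FPKM under PRL-3 exosomes, 9916 and 10006 under VT exosomes). Of 12 markers of resident Kupffer cells, however, Clec4f, Vsig4, Timd4, Marco and Cd163 were listed at 0 in every library, and the 12 summed to 6.22 to 10.8 FPKM. Cd5l (1.05 to 3.52 FPKM) and Nr1h3 (4.68 to 6.85 FPKM) were the only 2 of the 12 that were tested. Macrophage markers were thus present, and of the 12 listed markers of resident Kupffer cells 5 were not detected. C1qa, C1qb, C1qc, Folr2 and Spic stayed below 1 FPKM in every library, at 0.83 at most (Folr2 in VT replicate 1). Most of the listed Kupffer cell markers were thus absent or near the floor. Neither the number of cells of a type nor the RNA per cell is known for bulk libraries, so fewer cells of a type and less RNA per cell cannot be told apart.

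Lyn was the most abundant of the 9 kinases and Yes1 was hardly detected. Lyn, which phosphorylates both activating and inhibitory receptors of myeloid cells, was at 98.8 and 107 FPKM under PRL-3 exosomes (replicates 1 and 2) and at 105 and 108 under VT exosomes. Its mean over the 4 libraries was above that of 91.8% of the tested genes. Csk was next at a mean of 88.7 FPKM, then Fyn at 50.2, Syk at 47.3, Btk at 32.3, Fgr at 28.7, Src at 11.5 and Lck at 9.44. In this order the library ranges did not separate Lyn from Csk, Fyn from Syk, Btk from Fgr or Src from Lck, although Lyn exceeded Csk within each of the 4 libraries. The other steps (Csk to Fyn, Syk to Btk, Fgr to Src and Lck to Yes1) were larger than the spread of the libraries. Yes1 was listed at 0, 0.02, 0.02 and 0.02 FPKM, or at most about 2 fragments a library, and was not tested.

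**Figure D1:**
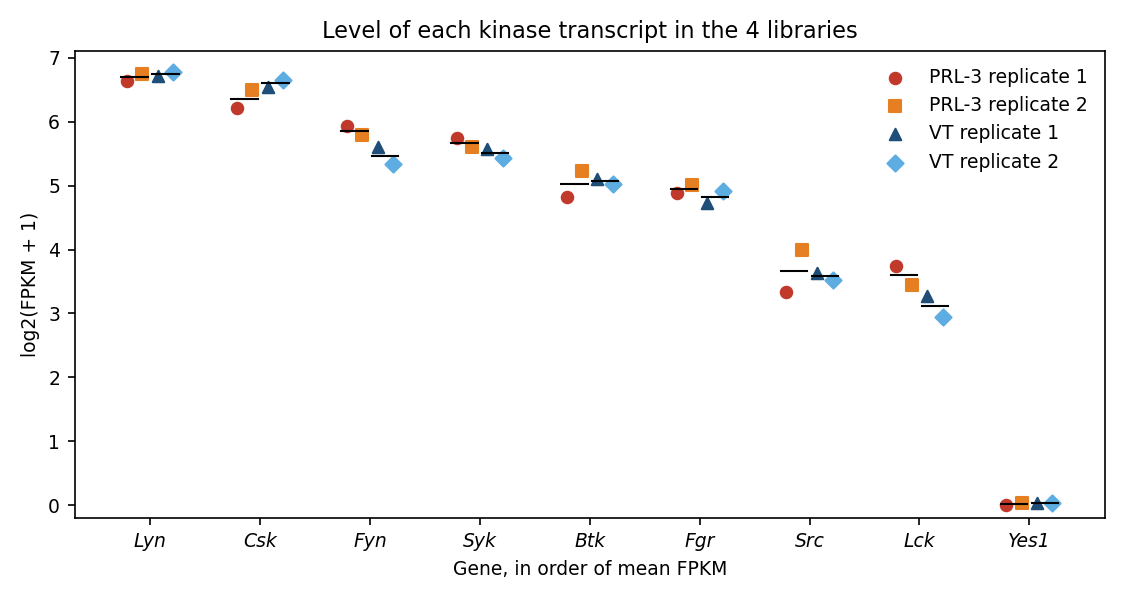
Level of the 9 kinases in each library, as log2(FPKM + 1), with genes in order of mean FPKM; each point is 1 library and each black line a group mean. Lyn and Csk lie at the top, Yes1 lies at or near 0, and both PRL-3 points lie above both VT points for Fyn, Syk and Lck and below them for Csk.

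The main comparison asked whether exosomes of MC38-PRL-3 cells left these kinases at another level than exosomes of MC38-VT cells. None of the 8 tested kinases was called by limma at an adjusted p under 0.05, a threshold that 0.0492% of all tested genes passed. At an unadjusted p under 0.05, Fyn and Lck were higher under PRL-3 exosomes, which is 2 of 8 where 5.66% of all tested genes were higher at that level, and 0 of 8 were lower, against 3.85% of all tested genes. Both PRL-3 values exceeded both VT values for 3 of the 8 (Fyn, Lck and Syk; 24.3% of all tested genes) and fell below them for 1 (Csk; 18.0% of all tested genes). The groups overlapped for the remaining 4. With 1 library left out, the log2 differences of Fyn and Lck were smallest without VT replicate 2 (0.26 and 0.32). They were largest without VT replicate 1 (0.52 and 0.65). Neither kinase passed an unadjusted p of 0.05 in every such fit, but the share of all tested genes that passed also changed. Passing or failing there is therefore not a result about the kinases alone. Without PRL-3 replicate 1, the most distant library, the difference was 0.41 for Src and -0.11 for Csk. Without PRL-3 replicate 2 these differences were -0.24 and -0.38. The median difference of the 8 was 0.11 on the log2(FPKM + 1) scale, and that of all tested genes 0.02. The sign of the kinase median rested on PRL-3 replicate 2: it was -0.02 without that library and 0.06 to 0.18 without any other. All differences are PRL-3 minus VT on that scale, which understates changes of low genes.

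Fyn, a Src family kinase of many tissues, was at 59.9 and 54.2 FPKM under PRL-3 exosomes (replicates 1 and 2) and at 47.5 and 39.4 under VT exosomes. The PRL-3 libraries were thus both higher, and the gap between the groups (54.2 to 47.5) was narrower than the gap between the VT libraries. The means were 57.1 ± 4.03 and 43.4 ± 5.76 FPKM (SD, n = 2 each), a difference on the log2 scale of 0.39 ± 0.13 (standard error; 95% interval 0.08 to 0.70). This interval takes no account of the number of genes tested, and over all genes the limma adjusted p was 0.49 (unadjusted p = 0.022). The difference was 0.32 without PRL-3 replicate 1 and 0.46 without PRL-3 replicate 2. It was 0.52 without VT replicate 1 and 0.26 without VT replicate 2.

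Lck, the kinase that starts T cell receptor signalling, was at 12.4 and 9.87 FPKM under PRL-3 exosomes and at 8.71 and 6.72 under VT exosomes. The order of the libraries was the same as for Fyn, with PRL-3 replicate 1 highest and VT replicate 2 lowest. These values rest on about 421, 345, 306 and 239 fragments, taking the longest annotated transcript as the length. The means were 11.2 ± 1.82 and 7.71 ± 1.41 FPKM (SD, n = 2 each), a difference on the log2 scale of 0.48 ± 0.17 (standard error; 95% interval 0.06 to 0.90). Lck did not pass over all genes (limma adjusted p = 0.51, unadjusted p = 0.032). Its difference was 0.33 without PRL-3 replicate 1 and 0.63 without PRL-3 replicate 2. It was 0.65 without VT replicate 1 and 0.32 without VT replicate 2.

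Since Lck is best known from lymphocytes, markers of T and NK cells were read beside it. Cd3d, Cd3e, Cd3g, Trac, Nkg7, Ncr1 and Klrb1c were listed at 0 in all 4 libraries. The 14 T and NK cell markers summed to 0.70 and 1.12 FPKM under PRL-3 exosomes and 0.73 and 0.57 under VT exosomes, below the level of Lck itself in every library. Zap70, which takes the place of Syk at the T cell receptor, had values of 0 to 0.14 FPKM. Of the 9 B cell markers, Pax5, Blk and Igkc were listed at 0, and the sums were 9.80 to 10.6 FPKM with overlapping groups, nearly all of it Ighm (9.13 to 9.74). An annotated microRNA gene, Mir8119, lies on the same strand within 25 of the 2929 exonic bases of Lck and was listed at 0.

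Some markers of stellate cells and fibroblasts, at low levels, were higher in both PRL-3 libraries than in both VT libraries. Of the 11 markers, 8 had both PRL-3 values above both VT values and 3 overlapped. Only 4 of the 11 were tested, and 0 were called (limma adjusted p = 0.20 to 0.93). Of these 4, Acta2, Tagln and Sparc had both PRL-3 values above and Dcn overlapped. Of all tested genes, 24.3% had both PRL-3 values above and 18.0% both below. Col1a1, Col1a2, Col3a1, Lum and Pdgfrb, which were among the 8, were too low to be tested. No such share was taken over genes that low, so the 8 of 11 has none to be set against. Sparc, a matrix protein, was at 2.07 and 1.97 FPKM under PRL-3 exosomes and listed at 0 in both VT libraries, while Dcn, the most abundant, overlapped at 6.63 and 4.32 against 5.44 and 4.65, and Lrat was listed at 0. The 11 summed to 15.9 and 13.7 FPKM against 7.76 and 6.96. The order of this sum was that of Fyn, Lck and Syk. The macrophage sum given above had the reverse order, set mostly by Lyz2 (5916 and 5988 FPKM against 6822 and 6831). Of its 10 genes, 3 had both PRL-3 values below (18.0% of all tested genes), 2 had both above (24.3%) and 5 overlapped. The part of other cells in the levels of these kinases was not tested.

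Csk was the only kinase of the 9 whose PRL-3 values were both below the VT values. Csk (chr9:57626646-57653631 on GRCm38, minus strand) was at 73.4 and 89.1 FPKM under PRL-3 exosomes and 92.8 and 99.7 under VT exosomes. PRL-3 replicate 1 was the lowest, and the distance from PRL-3 replicate 2 to VT replicate 1 was small beside that between the PRL-3 libraries. The means were 81.2 ± 11.1 and 96.2 ± 4.84 FPKM (SD, n = 2 each). The log2 difference came to -0.25 ± 0.13 (standard error; 95% interval -0.56 to 0.06; limma adjusted p = 0.59), which was less than the log2 difference of 0.28 between the PRL-3 libraries themselves. It was -0.11 without PRL-3 replicate 1 (unadjusted p = 0.31) and -0.38 without PRL-3 replicate 2 (unadjusted p = 0.0089, limma adjusted p = 0.12).

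Because Csk acts on the Src family, its level was set against the summed FPKM of the 6 family members described here (Src, Fyn, Yes1, Fgr, Lyn and Lck), which are not the whole family. That sum was 209 and 217 FPKM under PRL-3 exosomes (replicates 1 and 2) and 198 and 194 under VT exosomes. Csk amounted to 0.351 and 0.410 of it under PRL-3 exosomes and to 0.470 and 0.513 under VT exosomes. The ratio was thus lower in both PRL-3 libraries, at a mean of 0.381 ± 0.0414 against 0.491 ± 0.0308 (SD, n = 2 each; exact two-sided permutation test, p = 0.333, the smallest that 2 against 2 libraries allow). The difference of the ratio was -0.111, and -0.0814 without PRL-3 replicate 1. These are ratios of transcripts and say nothing of protein or of phosphorylation.

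Lyn was the largest part of these 6 transcripts in each library. It made up 47.3% and 49.3% of their summed FPKM under PRL-3 exosomes and 52.9% and 55.8% under VT exosomes. Fyn was 28.7% and 25.0% against 24.03% and 20.3%, so that its share was larger in both PRL-3 libraries and that of Lyn smaller. Fgr held 12.9% to 15.1%, Src 4.36% to 6.85% and Lck 3.46% to 5.95%. Set by the tails printed above, the genes with 6 codons after the tyrosine stood to those with 4 at 0.878 and 0.859 under PRL-3 exosomes and at 0.745 and 0.688 under VT exosomes. This ratio was computed after the levels were seen and is a description.

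**Figure D2:**
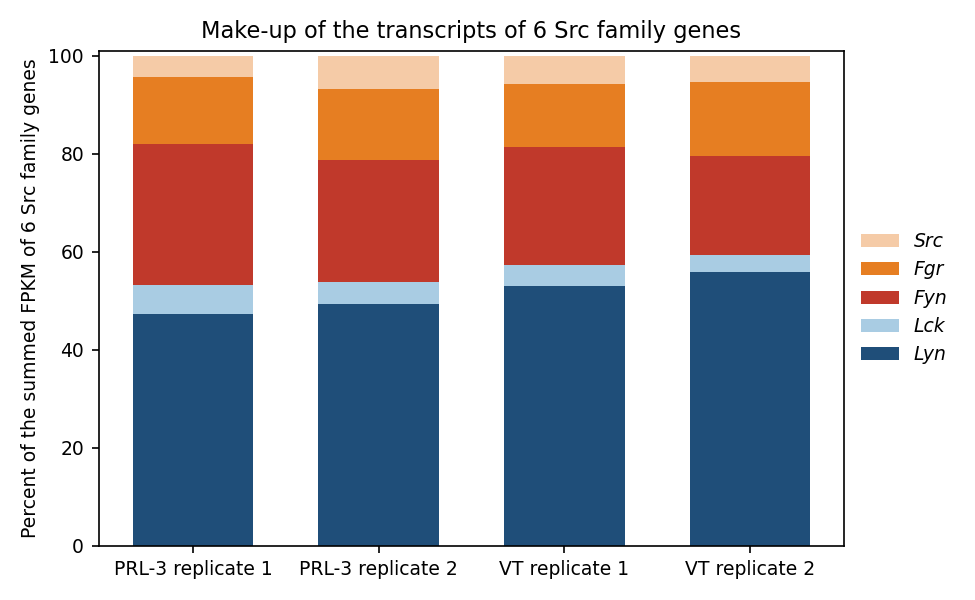
Share of each of 6 Src family genes in their summed FPKM, in percent, for each of the 4 libraries; Yes1 is too low to show. Lyn takes 47.3% or more of every bar, and Fyn takes 25.0% or more under PRL-3 exosomes and 24.03% or less under VT exosomes.

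The levels of Lyn given above overlapped between the groups, and the log2 difference of Lyn came to -0.05 ± 0.10 (standard error; 95% interval -0.30 to 0.20; limma adjusted p = 0.90). This interval was the narrowest of the 8 kinases. Its upper bound lay below the 0.39 estimated for Fyn, but the interval of Fyn (0.08 to 0.70) overlapped it. The difference between these kinases was not tested. An annotated gene on the opposite strand, Gm26857, covers 248 of the 4073 exonic bases of Lyn, and since strand marking is not mentioned for these libraries, reads of the pair cannot be told apart there.

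Fgr, a kinase of neutrophils and macrophages that signals from integrins, was at 28.7 and 31.2 FPKM under PRL-3 exosomes and at 25.4 and 29.3 under VT exosomes. VT replicate 2 lay between the PRL-3 libraries. The log2 difference was 0.13 with a 95% interval of -0.15 to 0.41 (limma adjusted p = 0.76).

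Src was the kinase whose PRL-3 libraries differed most from each other. It was at 9.12 and 14.9 FPKM under PRL-3 exosomes (replicates 1 and 2) and at 11.5 and 10.5 under VT exosomes, which thus lay between them. The log2 difference between the PRL-3 libraries was 0.65, against 0.11 between the VT libraries. The difference between the groups came to 0.08 ± 0.22 (standard error; 95% interval -0.46 to 0.62; limma adjusted p = 0.93), and its sign depended on the library used: it was 0.41 without PRL-3 replicate 1 and -0.24 without PRL-3 replicate 2.

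**Figure D3:**
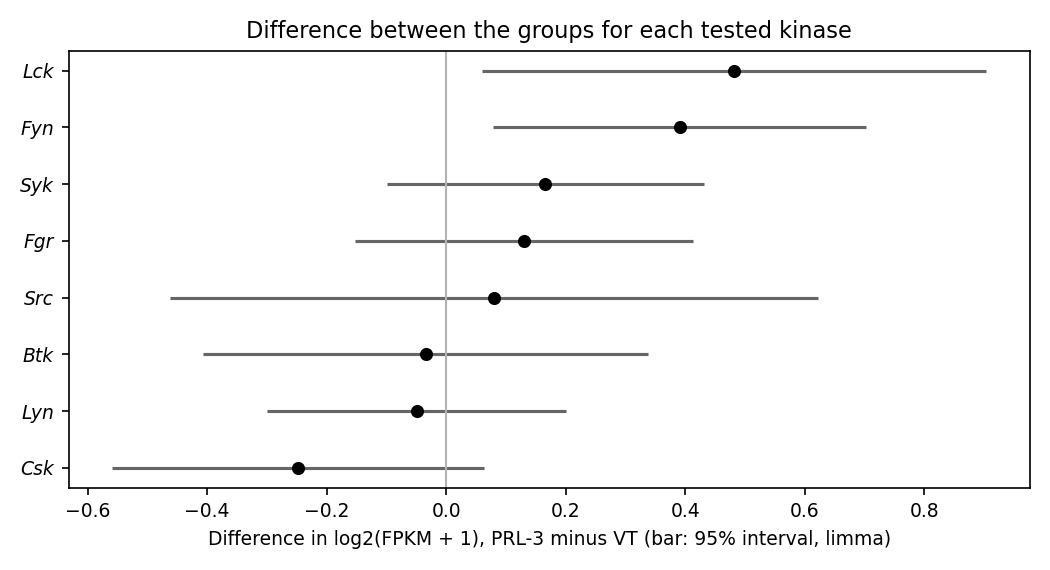
Difference in log2(FPKM + 1), PRL-3 minus VT, for the 8 tested kinases; points are limma estimates and bars their 95% intervals, not adjusted for the number of genes. The intervals of Fyn (0.08 to 0.70) and Lck (0.06 to 0.90) lie above 0, and the others include 0.

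Syk (chr13:52583173-52648792, plus strand), the kinase recruited to phosphorylated ITAMs, was at 52.4 and 47.7 FPKM under PRL-3 exosomes and 46.6 and 42.4 under VT exosomes. Both PRL-3 libraries were higher by a small margin (47.7 against 46.6). The means were 50.1 ± 3.30 and 44.5 ± 2.96 FPKM (SD, n = 2 each). On the log2 scale they differed by 0.17, with a 95% interval of -0.10 to 0.43 (limma adjusted p = 0.67). Set against the sum of the 6 Src family members, Syk stood at 0.251 and 0.220 under PRL-3 exosomes and 0.236 and 0.218 under VT exosomes, and the groups overlapped.

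Btk (chrX:134542336-134583570, minus strand), the Tec family kinase that activates PLCγ2, was at 27.4 and 36.7 FPKM under PRL-3 exosomes and at 33.4 and 31.6 under VT exosomes. As for Src, the PRL-3 libraries lay on either side of the VT libraries, and PRL-3 replicate 1 was the lowest. The log2 difference was -0.03 with a 95% interval of -0.41 to 0.34 (limma adjusted p = 0.96), and it was 0.17 without PRL-3 replicate 1. Btk per Syk was 0.523 and 0.768 under PRL-3 exosomes and 0.716 and 0.745 under VT exosomes. Of the other Syk and Tec kinases, Tec was at 11.4 to 13.9 FPKM and Txk at 1.35 to 3.04, both with overlapping groups, and Bmx was listed at 0 in every library.

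The genes around the 9 kinases were read from 10 lists of 115 genes, all found in the files. Of these, 86 were tested, 0 were called in either direction, and 8 were listed at 0 in all libraries. At an unadjusted p under 0.05, 8 were higher (9.30%, against 5.66% of all tested genes) and 3 lower (3.49%, against 3.85%) under PRL-3 exosomes. Both PRL-3 values exceeded both VT values for 21 of the 86 (24.4%, against 24.3% of all tested genes) and were lower than both for 19 (22.1%, against 18.0%), and the groups overlapped for 46.

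Of the 6 tested genes that anchor Csk or resemble it, 1 was higher at an unadjusted p under 0.05 (5.66% of all tested genes) and 0 were called (median -0.10). That gene was Ptpn22, a phosphatase that binds Csk and removes phosphate from the activating tyrosine of Src family kinases. It was at 176 and 166 FPKM under PRL-3 exosomes and at 140 and 123 under VT exosomes, so both PRL-3 libraries were higher (log2 difference 0.38, limma adjusted p = 0.48). Dok2, a docking protein, had the opposite order, at 76.2 and 93.6 against 96.5 and 105 (log2 difference -0.25, adjusted p = 0.60). Pag1, a membrane anchor of Csk, was at 5.36 to 6.35 FPKM.

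Of the 10 tested phosphatases of these kinases, 0 were called, 3 had both PRL-3 libraries above and 1 had both below, against 24.3% and 18.0% of all tested genes (median 0.04). Ptpn6, the phosphatase SHP-1 that inhibitory receptors recruit, was at 112 and 143 FPKM under PRL-3 exosomes and 133 and 143 under VT exosomes, with overlapping groups. Ptpra, a receptor phosphatase that frees the Src tail, was at 122 and 117 against 131 and 132 (log2 difference -0.13, limma adjusted p = 0.70). Ptprc, the phosphatase CD45, was at 96.7 and 96.5 against 93.7 and 86.0 (log2 difference 0.10, adjusted p = 0.78).

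Both ITAM adaptors of myeloid cells were abundant. Tyrobp, also called DAP12, was at 415 and 429 FPKM under PRL-3 exosomes and 448 and 458 under VT exosomes (log2 difference -0.10, limma adjusted p = 0.79). Fcer1g, the common Fc receptor gamma chain, was at 347 and 290 against 317 and 306, with overlapping groups. Of the 13 activating receptors tested, 1 was higher and 1 lower at an unadjusted p under 0.05, against 5.66% and 3.85% of all tested genes, and 0 were called (median -0.01). They were Clec7a, the beta-glucan receptor Dectin-1, at 12.3 and 14.6 against 8.90 and 8.60 (log2 difference 0.57, adjusted p = 0.45), and Sirpb1a, at 15.03 and 14.1 against 19.3 and 20.6 (log2 difference -0.43, adjusted p = 0.45). The most abundant, Clec5a and Clec4d, were at 330 to 432 and 236 to 264 FPKM and overlapped.

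The genes listed as receptors with inhibitory tyrosine motifs (ITIMs), which Src family kinases also phosphorylate, held 4 of the 8 list genes that were higher at an unadjusted p under 0.05. Whether each mouse protein carries the motif was not checked. Of the 11 tested, 4 were higher at that level, 0 lower and 0 called, against 5.66% higher and 3.85% lower of all tested genes (median 0.18, against 0.02). Without PRL-3 replicate 1, 3 of the 11 were higher at that level (6.52% of all genes tested then) and the median was -0.03. Without VT replicate 1 there were 2 (3.05%), and without VT replicate 2 there were 0 (1.83%). Leaving out PRL-3 replicate 2 gave a median of 0.23, and the receptors at that level then included both directions. Shares of all tested genes at that level were then larger in both directions too. The 4 higher with all libraries were Fcgr2b, the inhibitory Fc receptor, at 141 and 161 FPKM against 117 and 96.9, Clec4a2 at 38.1 and 49.3 against 32.2 and 29.3, Cd33 at 20.7 and 29.4 against 17.9 and 17.2, and Siglece at 13.95 and 9.41 against 7.77 and 8.15. In each, both PRL-3 libraries were above both VT libraries, and the limma adjusted p was 0.47 to 0.51. These 4, like Clec7a, Sirpb1a, Ptprc, Pag1, Plcg2, Blnk and Hcls1, were named after their values were seen. The most abundant of the list did not follow them: Lilrb4a was lower in both PRL-3 libraries, at 618 and 711 against 792 and 718, and Sirpa overlapped, at 343 and 238 against 264 and 242.

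Downstream of the kinases, 29 adaptors and effectors were tested and 0 were called (median 0.00). Both PRL-3 values were above for 6 and below for 9, against 24.3% and 18.0% of all tested genes. At an unadjusted p under 0.05, 1 of the 29 was higher (Blnk) and 1 lower (Hcls1), against 5.66% and 3.85% of all tested genes. Fyb and Lcp2, the most abundant of these adaptors, were at 559 to 614 and 201 to 242 FPKM, each a little higher in both PRL-3 libraries (log2 differences 0.09 and 0.15, limma adjusted p = 0.83 and 0.69). Plcg2, the phospholipase that Btk activates, was at 48.9 and 45.1 FPKM under PRL-3 exosomes and 50.6 and 54.4 under VT exosomes (log2 difference -0.16, limma adjusted p = 0.67), and Blnk, the scaffold that brings Btk to it, was at 15.2 and 13.1 against 11.6 and 10.8 (log2 difference 0.31, adjusted p = 0.51). Hcls1, an actin-binding substrate of these kinases, was at 152 and 174 FPKM against 202 and 199 (log2 difference -0.30, limma adjusted p = 0.51).

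**Figure D4:**
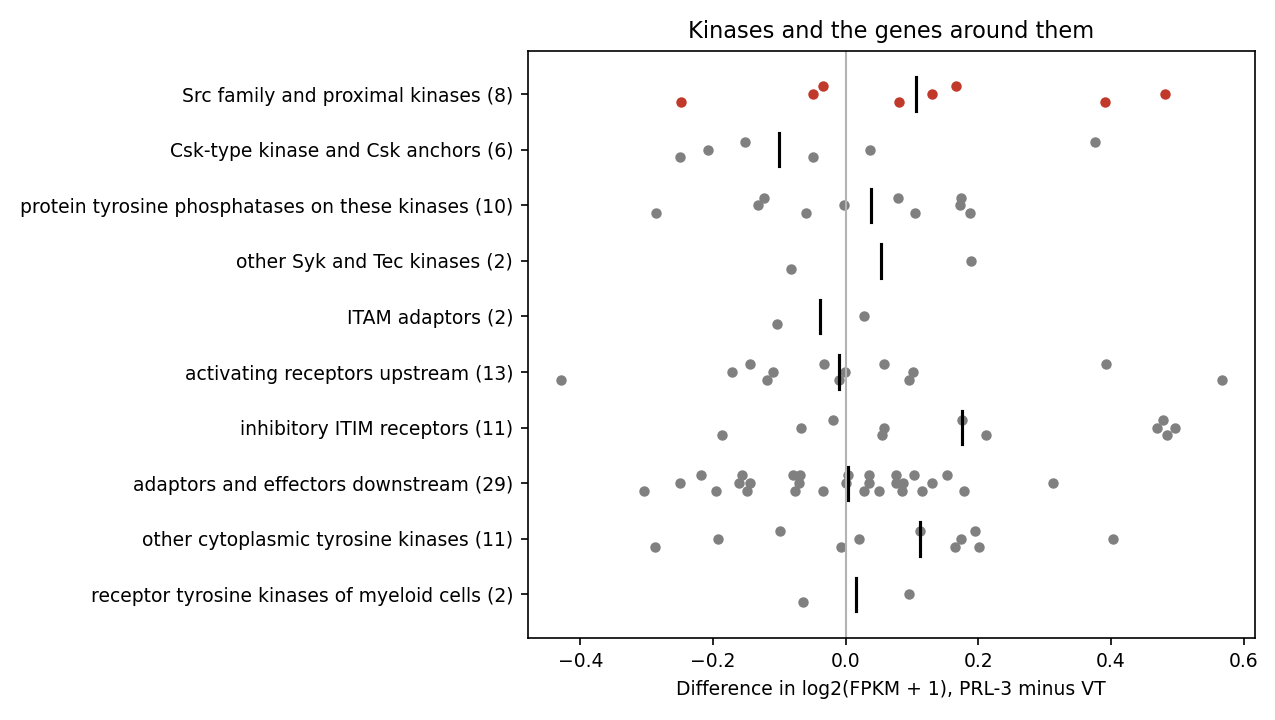
Difference in log2(FPKM + 1), PRL-3 minus VT, of each tested kinase (top row, 8 genes) and of each tested gene of the lists around them; each point is 1 gene, the vertical offset of points carries no meaning, and black bars are medians. The median is 0.11 for the 8 kinases and 0.18 for the 11 inhibitory receptors (-0.02 for the kinases without PRL-3 replicate 2, and -0.03 for the receptors without PRL-3 replicate 1), and no gene shown was called.

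For each tested kinase, the gene of these lists with the nearest pattern was found by the root mean square difference (RMS) of log2(FPKM + 1) values, each centred over the 4 libraries. With 4 libraries this is only a description of 86 candidates. Dok2 lay nearest to Csk (RMS 0.0087), Ptprj, a receptor phosphatase, to Btk (0.013), Crkl to Fgr (0.020), Ptpn22 to Fyn (0.035), Tyrobp to Lyn (0.036), Malt1 to Src (0.052), Ptprc to Syk (0.055) and Ptpn22 again to Lck, at the larger distance of 0.11. Dok2 and Csk both had PRL-3 replicate 1 lowest and VT replicate 2 highest, and Ptpn22, Fyn and Lck had the reverse.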

How the data were processed

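RNA from 4 libraries, 2 per exosome group, had been sequenced after bead capture of mRNA and random hexamer priming. The authors deposited the FPKM values in 1 table per library, and the submitters' processing notes name RSEM among the tools and mm10 as the build, without saying what each did to make the values. No label names the unit, which was read from the values: their sums differ between libraries (675475 to 725599), and low values become near-whole fragment numbers when multiplied by transcript length and depth. For the aligner and annotation the sources used here give no name. The rows of 5 of the 9 kinases carry identifiers of assembled transcripts.

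Groups were compared on log2(FPKM + 1), a pseudocount of 1, with limma 3.58.1 in R 4.3.3 (mean-variance trend, robust empirical Bayes), over genes that reached 1 FPKM in 2 libraries or more. P values were adjusted by the Benjamini-Hochberg method over all 12193 genes tested. The procedure was tested on simulated data, with planted changes larger than the differences of the kinases. That test says nothing of differences as small as theirs. Gene positions and coding sequences were from GENCODE mouse release M21 (GRCm38). Depth was the number of fragments at which low values of genes with 1 transcript of 600 to 2000 bases became whole (90.1% to 92.2% of values within 0.2 of a whole number), and fragment numbers are approximations. Alternatives covered the pseudocount, filter, scaling, variance trend, replicate block, rows per symbol and each library left out. Counts of inhibitory receptors at an unadjusted p without each library were added after seeing the data. The kinases and gene lists were chosen with earlier results of these data known. The genes named were the 9 kinases, the 2 of highest mean per list, kinases listed at 0, the nearest pattern per kinase, and others said to be named after their values were seen. The cell type markers named singly, Sparc among them, were also picked from their lists after their values were seen. Some genes are not reported here, and lists, sums and counts leave them out. Sums over the Src family therefore cover 6 members, a change made after the data were seen. Protein sequences were not used here.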

Additional observations from a re-analysis of the deposited data

How the results depend on the processing

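No kinase was called under any of the 14 alternatives. Fyn, Lck, Fgr, Syk and Csk kept their direction in all of them, with log2 differences of 0.26 to 0.52 for Fyn, 0.32 to 0.65 for Lck, 0.03 to 0.23 for Fgr, 0.10 to 0.23 for Syk and -0.38 to -0.11 for Csk. With 1 library left out, which leaves a group of 1 assumed to vary like the other group, the sign of the others turned: Src ranged from -0.24 to 0.41, Btk from -0.24 to 0.17 and Lyn from -0.11 to 0.0076. The difference in Csk per sum of the 6 Src family members ranged from -0.140 to -0.0814. Over all genes, 6 calls became 1 with a pseudocount of 0.1, 1 with a pseudocount of 5, 0 with no filter, 1 with a mean FPKM of 5 or more and 10 without the mean-variance trend, and 0 to 100 with 1 library left out (leaving out PRL-3 replicate 2 gave 100, PRL-3 replicate 1 gave 2, and either VT library gave 0). With the replicate block there were 15. Deviations of libraries of the same replicate number correlated at -0.0578, so the numbers were not taken as pairs, and the block made no kinase pass (adjusted p = 0.35 for Fyn and 0.33 for Lck). With 1 library left out, counts at an unadjusted p under 0.05, added after seeing the data, ranged from 0 to 3 for the kinases (2 with all libraries) and from 0 to 6 for the inhibitory receptors (4 with all), both at 0 without VT replicate 2, and the kinase median ranged from -0.02 to 0.18. The counts at an unadjusted p join both directions. With all libraries every gene so counted was higher. The upper end of each range, reached without PRL-3 replicate 2, included genes of both directions. In that fit larger shares of all tested genes also passed in both directions. The upper ends therefore cannot be set directly against the counts with all libraries. Scaling did not change any direction among the kinases. Depth limits Yes1, at about 2 fragments or fewer a library.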

Other observations

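Other cytoplasmic tyrosine kinases were expressed as a group: all 11 listed were tested, 0 were called, and both PRL-3 values exceeded both VT values for 4 and were lower than both for 1, against 24.3% and 18.0% of all tested genes (median log2 difference 0.11). Jak1 was the most abundant, at 65.4 and 51.8 FPKM under PRL-3 exosomes and 52.7 and 50.2 under VT exosomes, with overlapping groups. Jak2, which carries signals of colony-stimulating factor receptors, was at 22.7 and 20.5 against 16.2 and 15.9 (log2 difference 0.40, limma adjusted p = 0.46), and Ptk2b, the focal adhesion kinase relative of myeloid cells, at 42.3 and 47.8 against 54.1 and 56.0 (log2 difference -0.29, adjusted p = 0.51). Jak2 was named after its values were seen.

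Receptor tyrosine kinases were few. Of the 10 listed, Csf1r, the receptor of the macrophage growth factor, was at 91.6 and 119 FPKM under PRL-3 exosomes and 114 and 105 under VT exosomes, and Insr, the insulin receptor, at 5.27 to 6.34, and these were the only 2 tested. Kit and Igf1r were listed at 0 in every library. Mertk, a receptor for dying cells that marks many resident macrophages, was listed at 0 in 3 libraries and at 0.02 FPKM in VT replicate 2. Its relative Axl was at 0.21 and 1.29 FPKM under PRL-3 exosomes and 0.14 in both VT libraries. Mertk and Axl were named after their values were seen.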
